A study of Mus musculus with 4 samples.

Results

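The transcript levels of 40 genes of homologous recombination and the Fanconi anemia pathway were examined in control and irradiated mouse oocytes. The genes were chosen by name for their place in these pathways. All 40 were present among the 17374 genes of the deposited transcript table, through 141 of its 45505 listed transcripts. RNA-seq was carried out on fully denuded germinal vesicle (GV) stage oocytes, which are arrested in prophase of the first meiotic division, from non-primed female mice on day 16 of post-natal development (C57/Bl6/DBA2J F1 background). The 2 control libraries came from non-irradiated oocytes, and the 2 irradiated libraries from oocytes exposed in vitro to 5 Gy of γ-irradiation from a Cesium-137 source and collected 24 h later. All oocytes were freed of cumulus cells and held in medium with milrinone, which blocks resumption of meiosis, while handling and culture time of the control pools for RNA-seq are not stated in full. Each library was made from pooled oocytes, and poly(A) RNA was captured with oligo(dT). The labels give the libraries of a condition as separate samples, and p-values measure the spread between these libraries only.

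Homologous recombination repairs a DNA double-strand break by copying an intact homologous molecule. The broken ends are resected to single strands, the strands are coated by replication protein A (RPA), and BRCA1, PALB2 and BRCA2 prepare the coated strands for invasion of the template. Helicases and nucleases then take the joined molecules apart. The Fanconi anemia pathway recognizes crosslinks between the DNA strands, attaches ubiquitin to FANCD2 and FANCI, and hands the lesion over to recombination. Oocytes are formed before birth and make and repair programmed double-strand breaks during meiotic prophase, and many of these genes are needed for fertility in the mouse.

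The levels of these 40 genes spanned more than 3 orders of magnitude, as the plot of levels by library shows. Levels are given in TPM, a measure that is corrected for transcript length, sums to a fixed total and can be compared between genes, as sums over the listed transcripts of a gene. The median member had a mean level of 5.18 TPM over the 4 libraries, 12 members reached 10 TPM and 5 lay under 1 TPM. The members lay above 24.5% to 95.2% of all listed genes, and 33 of 40 lay above the median gene. Together they held 0.0859%, 0.0924%, 0.0871% and 0.1% of the estimated counts in the control libraries (1, then 2) and the irradiated libraries (1, then 2), which is the order used for all values below.

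**Figure D1:**
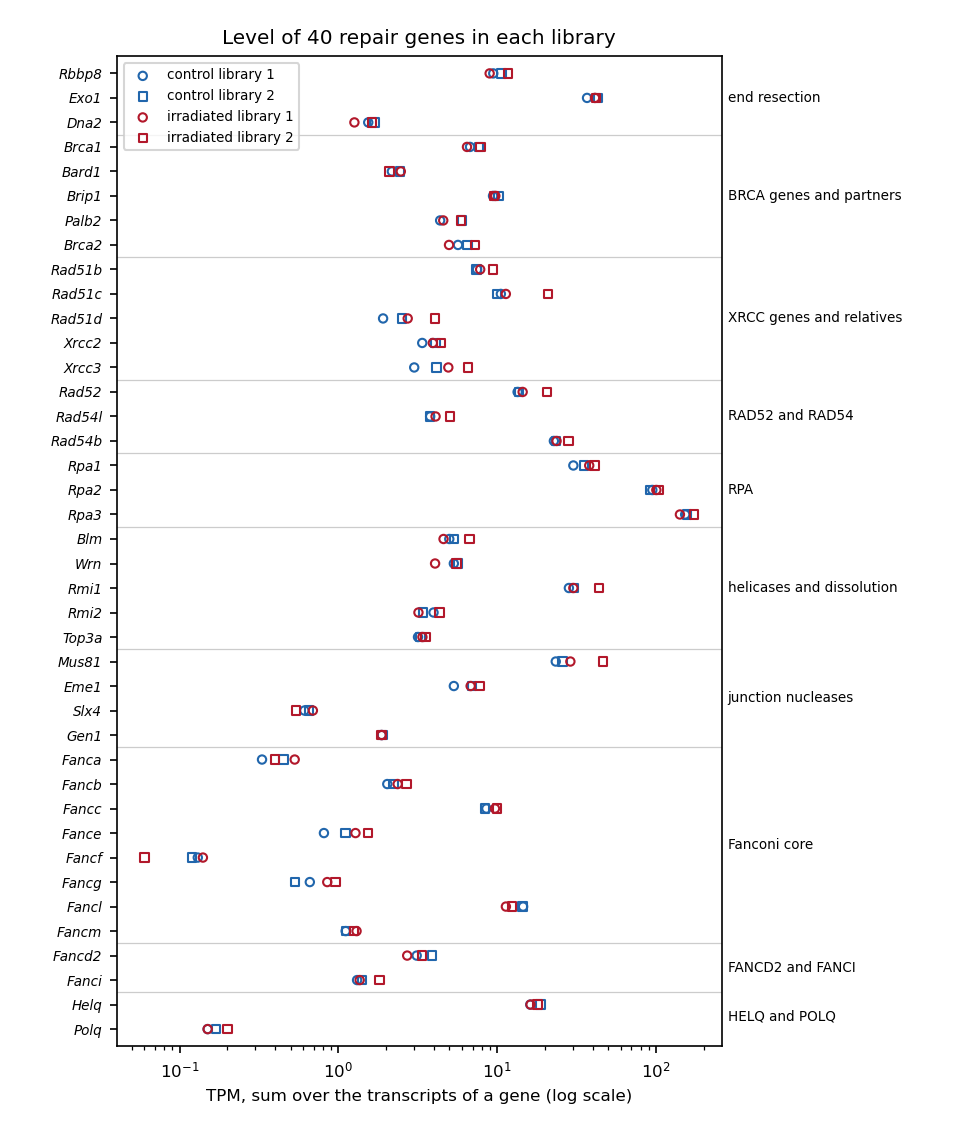
Level of each of the 40 genes on a log axis (TPM, sum over the transcripts of a gene), with circles for library 1 and squares for library 2, in blue for control and red for irradiated oocytes. Rpa3 and Rpa2 lie at the upper end with means of 156 and 97.6 TPM, Polq and Fancf at the lower end with 0.168 and 0.113 TPM, and the 4 points of most genes lie close together relative to the distances between genes.

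Rpa3 and Rpa2, which encode subunits of RPA, had the highest levels of the 40 genes. Rpa3, the smallest subunit, had levels of 153, 157, 142 and 174 TPM. Rpa2, the subunit phosphorylated during the damage response, had 94.8, 91.7, 100 and 104 TPM. Rpa1, the large DNA-binding subunit, had 30.2, 35.2, 38.0 and 40.9 TPM. On this TPM scale the conditions overlapped for Rpa3, and the 2 irradiated libraries held the higher levels of Rpa2 and Rpa1. By TMM-normalized count, Rpa3 was lower in both irradiated libraries, and the conditions overlapped for Rpa2 and Rpa1.

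Among the genes that open the break, Exo1, a 5′ to 3′ exonuclease with a further role in meiotic crossover formation, had 36.8, 43.0, 41.3 and 41.9 TPM. Rbbp8, which encodes CtIP and starts resection, had a mean of 10.2 TPM, and Dna2, the other long-range resection nuclease, 1.53 TPM. The BRCA genes and their partners lay in a narrow band. Brip1, a helicase that binds BRCA1, had a mean level of 9.73 TPM, Brca1 7.18 TPM, Brca2 6.10 TPM, Palb2, the bridge between the last 2 proteins, 5.21 TPM, and Bard1, the partner of BRCA1 in its ubiquitin ligase, 2.29 TPM.

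Xrcc2, Xrcc3, Rad51b, Rad51c and Rad51d, a family of related genes that support strand invasion, ranged from 2.80 TPM for Rad51d to 13.2 TPM for Rad51c. Rad51c had levels of 10.5, 9.97, 11.3 and 20.97 TPM, so that irradiated library 2 stood above the other 3, which lay close together. Rad52, an annealing protein, had a mean of 15.5 TPM. Rad54b, a motor protein of the same family as RAD54, had 24.5 TPM and its relative Rad54l, which drives strand invasion, 4.17 TPM. Of the Rad54b exon bases in the GENCODE M21 annotation, 35.9% were shared with other genes, nearly all of them with Fsbp on the same strand, and reads of both genes cannot be told apart there.

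Of the complex that dissolves double Holliday junctions, Rmi1, a scaffold subunit, had a mean of 33.1 TPM, well above its partners Blm, the helicase (5.40 TPM), Rmi2 (3.73 TPM) and Top3a, the topoisomerase (3.35 TPM). Wrn, another helicase of the RecQ family, had 5.15 TPM. The nuclease subunit Mus81 had 23.4, 25.7, 28.9 and 46.4 TPM, with irradiated library 2 again highest, and its partner Eme1 had a mean of 6.71 TPM. Gen1, a resolvase that works apart from MUS81, had 1.88 TPM, and Slx4, the scaffold for several nucleases, 0.623 TPM.

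Within the Fanconi core complex, the levels differed by 2 orders of magnitude. Fancl, the ubiquitin ligase subunit, had 14.6, 14.5, 11.3 and 12.4 TPM, and Fancc had a mean of 9.12 TPM. Fancb, which binds FANCL in the catalytic module, had 2.32 TPM, Fancm, the DNA translocase that anchors the complex, 1.20 TPM, and Fance, which contacts FANCD2, 1.19 TPM. Fancg lay at 0.750 TPM, Fanca at 0.428 TPM and Fancf, an adaptor subunit, at 0.113 TPM. Fancf had between 2 and 6 estimated counts in each library and was the 1 member not tested. The pair that receives the ubiquitin had means of 3.27 TPM for Fancd2 and 1.47 TPM for Fanci. Helq, a helicase required for germ cell maintenance, had 17.3 TPM, whereas Polq, the polymerase of theta-mediated end joining, had 0.168 TPM.

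Promoter sequences were available in the RefSeq promoter table (GRCm38.p6) for 31 members. E2F factors switch on many DNA repair genes in cycling cells, and their binding motif was searched as TTTCCCGC, TTTGGCGC, TTTGCCGC or TTTCGCGC on either strand, from 250 bases before to 50 bases after the gene start. At least 1 match lay in 5 of 31 members (16.1%; Bard1, Brca2, Fancg, Rad51c and Rmi1), against 3.93% of 13800 other genes of the deposited table and 2.6% of 27025 genes in all. CCAAT was present in 18 of 31 (58.1%, against 43.1% and 41.1%), and TTTGAA, the cell cycle homology region motif, in 4 of 31 (12.9%, against 16.4% and 20.2%). None of the 3 motifs contains another. A match is a string of letters and was not tested as a binding site. Without the 50 bases after the start, the E2F letters were found in 3 members. The sequences of Bard1 and Brca2 are shown because they hold the match outside the GENCODE bounds of their own gene. Exons of other genes were not compared with these windows. The match of Fancg lies 52 bases before its RefSeq start and inside a GENCODE exon, and is not shown. For Brca2 the 250 bases before the start are given, at chr5:150522371-150522620 on the plus strand, and for Bard1 the 76 bases of its window upstream of the GENCODE gene, at chr1:71103147-71103222 on the minus strand. Both read 5′ to 3′ toward the gene, with the match in capitals.
Brca2: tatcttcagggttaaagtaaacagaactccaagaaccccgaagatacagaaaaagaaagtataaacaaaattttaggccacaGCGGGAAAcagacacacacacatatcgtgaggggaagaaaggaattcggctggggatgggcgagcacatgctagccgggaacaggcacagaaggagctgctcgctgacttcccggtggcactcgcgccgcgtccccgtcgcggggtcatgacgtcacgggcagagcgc
Bard1: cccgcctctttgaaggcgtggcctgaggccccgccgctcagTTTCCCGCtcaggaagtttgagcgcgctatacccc

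Before the conditions were compared, the libraries were checked for sample identity and spread. The oocyte markers were abundant in all 4 libraries (summed level of 12 genes from 47300 to 52620 TPM). Of 12 granulosa and cumulus genes, Foxl2, Amh, Amhr2, Wt1 and Ptx3 were not among the listed genes. The other 7 had a summed level of 15.0 to 20.8 TPM. Nearly all of it came from Cyp19a1 (8.79 to 10.2 TPM), Nr5a2 (3.53 to 7.43 TPM) and Fshr (1.66 to 2.89 TPM). Markers of theca and stroma (5 of 8 listed) summed to 1.15 to 2.58 TPM and those of blood and endothelium (2 of 6 listed) to 5.54 to 9.29 TPM. Tested were 12 oocyte genes, 3 of granulosa and cumulus, 3 of theca and stroma and 2 of blood and endothelium. Of these tested genes, 0 passed the limits (edgeR, 0.00796% of all genes tested). At an unadjusted p under 0.05 there were also 0 (5.92% of all genes tested). In each of these 3 lists of other cell types, irradiated library 2 held the highest sum. Irradiated library 2 also stood apart in several oocyte genes, among them Nobox, with 1215 TPM against 398 to 468 TPM, and Oosp1, with 1038 TPM against 2200 to 2498 TPM. It had 2579 TPM of Zp1 against 989 to 1294 TPM, and 1937 TPM of Zp2 against 4115 to 4452 TPM. Not all oocyte genes differed in this way, and Ddx4 had 75.3 to 77.7 TPM over all libraries. The TMM scaling factor of irradiated library 2 was 1.19 against 0.923 to 0.975. The part of these differences in the results was not tested. Among the members, the irradiated libraries lay farther apart than the controls for 29 of 39 genes (74.4%, against 71.1% of all genes tested), with a median absolute log2 difference of 0.220 between irradiated and 0.0839 between control libraries. The highest TPM lay in irradiated library 2 for 26 of 40 members, whereas the highest normalized count, which is scaled by TMM, lay there for 6 of 39.

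The comparison of irradiated with control oocytes asked whether the RNA of these repair genes differed 24 h after 5 Gy. The total of no member passed the limits set by the study, which are a log2 fold change beyond 2 in either direction together with an adjusted p under 0.05. By edgeR's quasi-likelihood test 0 of 39 members were called, beside 1 of 12569 genes (0.00796%). DESeq2 called 0 of 40 members beside 4 of 17374 genes. The exact test of edgeR called 0 of 39 members beside 10 of 12569 genes, and limma-voom 0 of 39 beside 0 of 12569. The log2 fold changes of the members ran from -0.51 to 0.45, and their 95% intervals from -0.93 to 1.03. For 38 of 39 members the whole interval lay within 1 log2 unit of 0, the exception being Fancg, which had a mean of 41.5 normalized counts in control and 54.2 in irradiated oocytes. A change of 2 log2 units therefore lay outside the interval of every tested member. An mRNA level per library cannot tell a smaller number of oocytes that express a gene from less RNA in each.

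**Figure D2:**
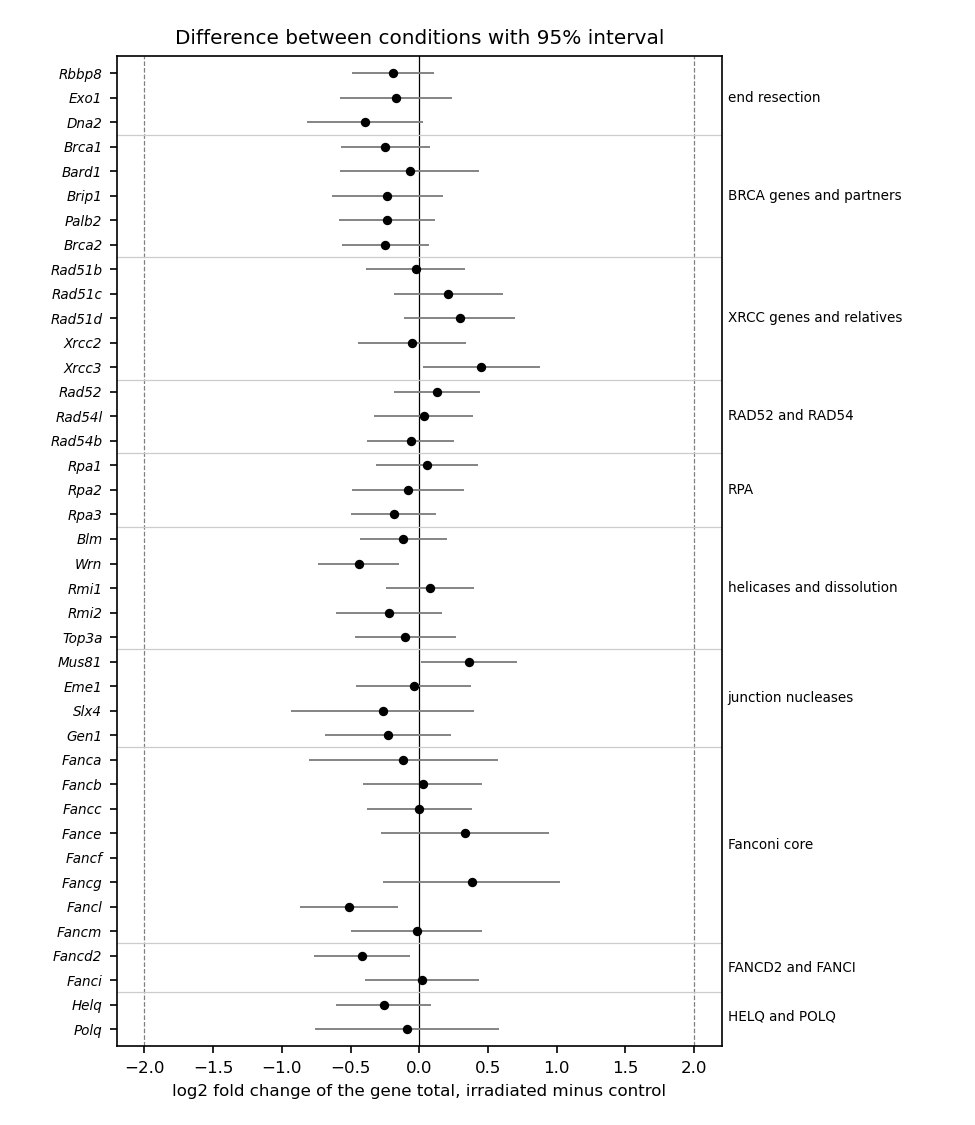
Log2 fold change of the gene total, irradiated minus control, for 39 members (points) with 95% intervals (lines) from edgeR's fit over 2 control and 2 irradiated libraries, and dashed lines at the limit of 2 log2 units. All intervals end between -0.93 and 1.03, and 5 of them, those of Xrcc3, Wrn, Mus81, Fancl and Fancd2, do not reach 0, while Fancf was not tested and has no point.

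At an unadjusted p under 0.05 there were 5 of 39 members (12.8%, against 5.92% of all genes tested). Wrn, Fancl and Fancd2 were lower in irradiated oocytes (1.29% of all genes were lower at this limit) and Mus81 and Xrcc3 were higher (4.63%). The adjusted p was 0.708 for each of these 5 (Benjamini-Hochberg, quasi-likelihood test of edgeR), so that the values are differences between these libraries and not calls. The number was 0 without control library 1 (319 of 13022 genes in all), 0 without control library 2 (474 of 13016), 17 without irradiated library 1 (5395 of 13011) and 7 without irradiated library 2 (1277 of 12761). With 2 libraries a condition, an exact permutation test of a single gene could not give a p below 0.333.

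Wrn (chromosome 8 of GRCm38, 33234384 to 33385527) had the smallest p of any member. Its normalized counts were 929 and 926 in the controls and 671 and 695 in the irradiated libraries. By this measure the conditions were well separated, and each pair of libraries nearly coincided. On TPM values the conditions overlapped, with 5.33, 5.67, 4.06 and 5.55 TPM. The means were 927 ± 2.12 and 683 ± 16.9 (SD, n = 2), and the log2 fold change was -0.44 (SE of 0.125, 95% interval -0.74 to -0.14). Leaving out each library in turn kept it between -0.47 and -0.43, and on TPM values with a pseudocount of 1 it was -0.17. No exon base of Wrn was shared with another gene.

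Fancl (chromosome 11, 26386135 to 26471876) had 651 and 610 normalized counts in control and 486 and 401 in irradiated oocytes. The conditions did not overlap, but the irradiated libraries lay apart. The log2 fold change was -0.51 (SE 0.151, interval -0.87 to -0.15), the lowest of the 39 members. It was -0.38 without irradiated library 2 and -0.27 on TPM values with a pseudocount of 1. In the annotation, 13.7% of its exon bases are shared with Vrk2 on the opposite strand. Since no source used here states whether the counting used strand, reads from such overlaps cannot be assigned with certainty.

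Fancd2 (chromosome 6, 113531682 to 113597017) had 444, 516, 366 and 354 normalized counts. Here the control libraries were the more distant pair, and both irradiated libraries lay below them. The TPM values, at 3.11, 3.88, 2.71 and 3.36, overlapped between conditions. The means were 480 ± 51.0 and 360 ± 8.42 (SD, n = 2), and the log2 fold change was -0.42 (SE 0.148). It ran from -0.53 to -0.31 when single libraries were omitted, and was -1.06 with NM transcripts only and -0.16 on TPM values with a pseudocount of 1. Fanci, its partner in the complex, had totals of 158, 161, 162 and 161 normalized counts, close together in all libraries, a log2 fold change of 0.02. Whether the differences of the 2 genes were unequal was not tested.

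Mus81 (chromosome 19, 5482345 to 5488402) had 1396 and 1446 normalized counts in control and 1649 and 2006 in irradiated oocytes. Both irradiated libraries lay above the controls, with irradiated library 2 farthest. The log2 fold change of 0.36 (SE 0.148) became 0.22 when irradiated library 2 was omitted and 0.49 when irradiated library 1 was. Its partner Eme1 had a log2 fold change of -0.04 (SE 0.177). Xrcc3 (chromosome 12, 111803192 to 111813873), of the same family as Xrcc2, had 193, 248, 300 and 303 normalized counts. Its irradiated libraries nearly coincided above 2 controls that differed, a log2 fold change of 0.45 (SE 0.181). This value was 0.28 without control library 1 and 0.64 without control library 2.

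**Figure D3:**
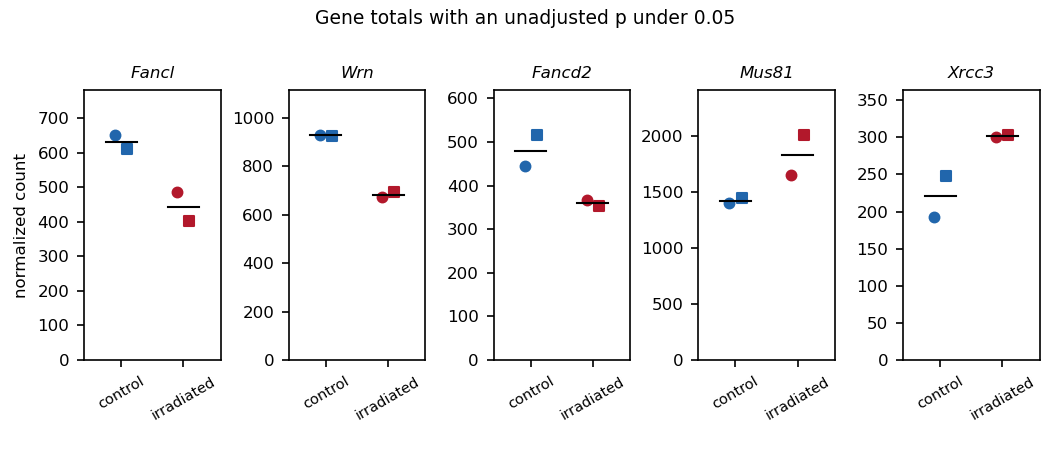
Normalized counts (axes from 0) of the 5 members with an unadjusted p under 0.05, with circles for library 1, squares for library 2 and a line at the mean of each condition. Irradiated libraries lie below the controls for Fancl, Wrn and Fancd2 and above them for Mus81 and Xrcc3, with adjusted p of 0.708 for each (Benjamini-Hochberg, quasi-likelihood test of edgeR).

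Beyond these 5, the rule for naming genes picked Dna2, Brca2, Brca1 and Rad54l. Dna2 had 170, 176, 133 and 130 normalized counts, a log2 fold change of -0.40 (SE 0.178, unadjusted p = 0.0617 in the quasi-likelihood test of edgeR). Brca2 had 1652, 1777, 1377 and 1512, and Brca1 950, 1008, 884 and 767. By normalized count, both irradiated libraries were lower than both controls for each of the 3 genes, while their TPM values overlapped between conditions. The log2 fold changes were -0.25 for Brca2 (SE 0.135) and for Brca1 (SE 0.137). The adjusted p of all 3 was 0.708 (Benjamini-Hochberg, quasi-likelihood test of edgeR). On TPM values with a pseudocount of 1 the Brca2 difference was -0.0111, and when only NM transcripts were summed the Brca1 difference turned to 2.59. Rad54l had 308, 304, 332 and 295, which overlapped between conditions, and a log2 fold change of 0.0321 (SE 0.152) that turned to -0.0673 without irradiated library 1.

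By TMM-normalized count, the conditions did not overlap for 21 of the 39 tested members. Normalized counts of 8 members (20.5%, against 22.1% of all genes) were higher in both irradiated libraries, and those of 13 members (33.3%, against 19.8%) were lower in both. The 8 were Fance, Fancg, Fanci, Mus81, Rad51d, Rad52, Rmi1 and Xrcc3, and the 13 were Blm, Brca1, Brca2, Brip1, Dna2, Fancd2, Fancl, Helq, Palb2, Rbbp8, Rmi2, Rpa3 and Wrn. On TPM values, only Fancl of the 13 was lower in both irradiated libraries, and the others overlapped between conditions. Of the 8, all but Fanci and Rmi1 were also higher in both on TPM values. Among the 18 that overlapped by normalized count, so were Rad51b, Rad51c, Rad54b, Rad54l, Rpa1, Rpa2, Top3a, Fancb, Fancc and Fancm. The share of all genes on TPM values was not counted. The log2 fold change lay above 0 for 13 members (33.3%, against 51.4% of all genes) and below 0 for 26 with TMM scaling. With library size alone it lay above 0 for 24 and below for 15, beside 9181 of 12569 genes above 0. On TPM values with a pseudocount of 1 it lay above 0 for 25 of 35, beside 7672 of 9438 genes. The median of the members was -0.0818 beside 0.0102 for all genes with TMM, 0.07 beside 0.172 with library size alone, and 0.105 beside 0.179 on TPM values. Relative to all genes, the member median thus differed by -0.0921, -0.102 and -0.0741 log2 units. Without irradiated library 2 it differed by 0.018, with 23 members above 0 and 16 below, and without irradiated library 1 by -0.21, with 9 above and 30 below.

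By role, the 5 BRCA genes and partners (Brca1, Bard1, Brip1, Palb2 and Brca2) had log2 fold changes from -0.25 to -0.07, all below 0 with TMM, while 4 of 5 were below 0 with library size alone, on TPM values or without irradiated library 2, and 3 of 5 when only NM transcripts were summed. The 3 resection genes had -0.40 to -0.17, and 2 of 3 turned above 0 on TPM values and 1 of 3 without irradiated library 2. The 5 genes of the Xrcc2 and Xrcc3 family ran from -0.05 for Xrcc2 to 0.45 for Xrcc3, with 3 of 5 above 0 by TMM, 5 of 5 by library size or TPM, and 3 or 4 of 5 with single libraries omitted. Among the helicases and dissolution genes the values ran from -0.44 for Wrn to 0.08 for Rmi1, among the junction nucleases from -0.27 for Slx4 to 0.36 for Mus81, and in the Fanconi core from -0.51 for Fancl to 0.38 for Fancg. The RPA genes had values between -0.19 and 0.06, and the group of Rad52, Rad54l and Rad54b between -0.06 and 0.13. These ranges hold for TMM with all libraries, and the directions relative to 0 moved with the setting. So did all genes, with 9181 of 12569 above 0 by library size alone and 7672 of 9438 on TPM values. On TPM values, 5 of 5 BRCA genes and partners and 3 of 3 resection genes lay below the median of all genes. So did 4 of 5 helicases and dissolution genes, 2 of 3 RPA genes and 3 of 5 Fanconi core genes. For junction nucleases it was 1 of 3, and for the Xrcc2 and Xrcc3 family 1 of 5. Of 3 RPA genes, 1 was above 0 by TMM, 3 on TPM values and 0 without irradiated library 1. Of 7 tested Fanconi core genes, 4 were above 0 by TMM, 2 without irradiated library 1 and 6 without irradiated library 2. Of 4 junction nucleases, 1 was above 0 by TMM and 3 without irradiated library 2, and of 5 helicases and dissolution genes, 1 by TMM and 4 on TPM values. No gene of any role was called.

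The same reads were also compared transcript by transcript, as the authors list them. A single transcript was listed for 10 members and up to 15 for the others (Fancc), and the authors' program had shared out the reads among them. Of the 141 member transcripts, 83 had more than 3 counts in all 4 libraries, 32 in 2 or 3, 21 in 1 and 5 in none. The spread between replicate libraries was far larger than for totals, with an edgeR common dispersion of 0.473 against 0.0251. By edgeR's quasi-likelihood test 0 of 101 tested member transcripts passed the limits, beside 0 of 26645 in all (0%), and limma-voom also called 0. At an unadjusted p under 0.05 there were 10 (9.90%, against 4.90%). DESeq2 called 2 of 104 (1.92%, against 0.862% of all transcripts) and the exact test of edgeR the same 2 of 101 (1.98%, against 0.927%), NM_001122959.1 of Rad54l and XM_006533408.3 of Eme1.

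Rad54l lies on chromosome 4 (116094264 to 116123690, minus strand) and has 6 listed transcripts. NM_001122959.1 had 0, 0.01, 141.81 and 105.47 estimated counts. Both irradiated libraries held it and neither control did, which makes it at least 38.6-fold higher against a floor of 3 counts per library. Its unadjusted p was 0.0022 and its adjusted p 0.777 in the quasi-likelihood test of edgeR (Benjamini-Hochberg). The adjusted p was 9.77e-05 in DESeq2, 1.95e-05 in edgeR's exact test and 0.839 in limma-voom. NM_001122958.1, the most abundant transcript, had 203, 177, 65.9 and 122 counts. Its log2 fold change was -1.17 (SE 0.312, adjusted p = 0.777 in the same test of edgeR).

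The counts of one of these Rad54l transcripts were high where those of the other were low. Their sum was 203, 177, 208 and 228 counts, which is 67.7%, 63.2%, 66.5% and 66.5% of the reads of the gene, so that the share of the pair varied by no more between conditions than between the 2 control libraries. GENCODE M21 pairs both RefSeq entries with 1 and the same transcript of 19 exons, 2780 bases and a coding length of 2241 bases. NM_009015.3, with 18 exons, has the same coding start and end (116097164 and 116123064) and had 28.3, 0, 0 and 34 counts. Of the Rad54l exon bases, 15.4% overlap Lrrc41 on the opposite strand. The cause of the different division of reads was not tested.

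Eme1 lies on chromosome 11 (94644996 to 94653964, minus strand) and has 4 listed transcripts. Of its exon bases, 10.7% overlap Lrrc59 and Mrpl27 on the opposite strand. The predicted transcript XM_006533408.3 had 52.0 and 47.2 counts in the controls. The irradiated libraries both held 0 counts of it, at least 17.9-fold lower against the same floor. Its adjusted p was 0.777 in the quasi-likelihood test of edgeR (Benjamini-Hochberg), 0.0134 in DESeq2, 0.0115 in edgeR's exact test and 0.839 in limma-voom. The most abundant transcript, XM_030246037.1, was even over the libraries, with 109, 125, 121 and 125 counts. NM_177752.5 had 82.1, 65.5, 114 and 96.8 counts, and XM_011249045.1 had 0.12, 29, 33.9 and 55.6. The rest of the gene without XM_006533408.3 held 191, 220, 269 and 277 estimated counts, which are not scaled for library size or composition, while the Eme1 total did not differ beyond its spread (log2 fold change -0.04, 95% interval -0.46 to 0.38).

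**Figure D4:**
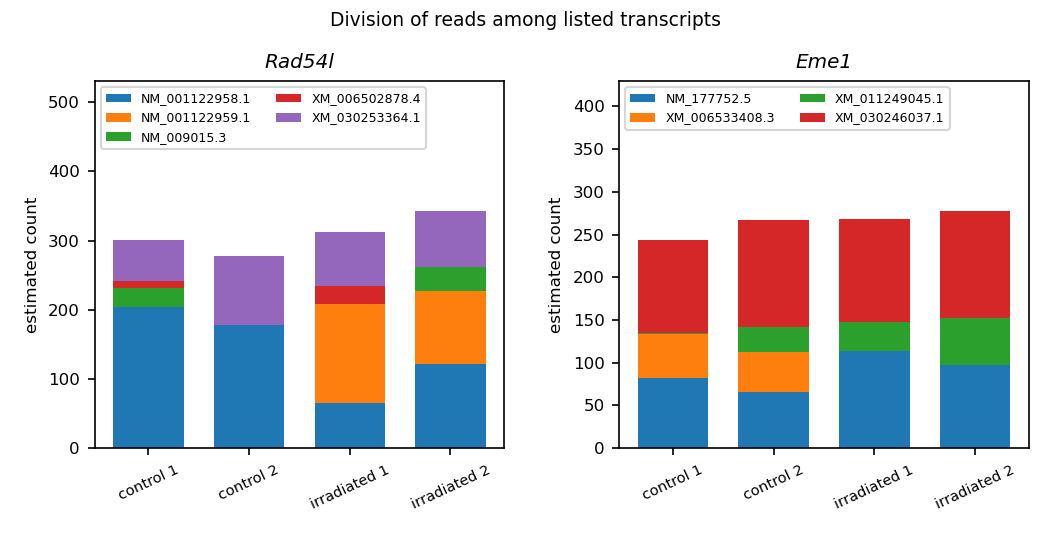
Estimated counts of the listed transcripts of Rad54l and Eme1 with more than 3 counts in at least 1 library, stacked, in the 4 libraries. NM_001122959.1 of Rad54l appears in both irradiated libraries with 142 and 105 counts and XM_006533408.3 of Eme1 in both controls with 52.0 and 47.2 counts, while the heights of the bars change little between conditions.

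A pattern of at most 3 counts in both libraries of a condition and more than 3 in both of the other was found for 4 of 141 member transcripts (2.84%, against 3.89% of all listed transcripts). Beside those of Rad54l and Eme1, it held XM_030247145.1 of Fancc, with 0, 0, 12.6 and 13 counts and at least 3.93-fold higher, and XM_030249182.1 of Slx4, with 0, 0, 8.49 and 11.9 counts and at least 3.08-fold higher. These were named after their values were seen. They make up 1.86% and 1.98% of the reads of Fancc and 7.93% and 15.2% of those of Slx4 in the irradiated libraries. Floors of this kind cover counting error only.

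Isoform usage, the share of a transcript in the reads of its gene, was tested in 26 members with several tested transcripts. By diffSpliceDGE of edgeR with Simes' method, 0 of 26 had an adjusted p under 0.05 (0.253% of 6323 genes did), 0 by an F test (0.917%) and 0 by limma's diffSplice. At an unadjusted p under 0.05 there were 2 of 26 (7.69%, against 6.12%), Rad54l and Eme1. Their adjusted p was 0.273 and 0.323 by edgeR with Benjamini-Hochberg adjustment, from 0.145 (F test) to 0.772 (no filter on low counts) for Rad54l and from 0.230 to 0.899 for Eme1 under the alternatives. Brca1 came next, with an unadjusted p of 0.205 in the test of edgeR. Its predicted transcript XM_006532064.4, named after its values were seen, had 544, 557, 248 and 436 counts, which is 58.6%, 59.9%, 29.8% and 48.9% of the gene.

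Fanci, also named after its values were seen, had an unadjusted p of 0.35 in the usage test of edgeR. Its transcript NM_145946.2 had 22.7, 17.8, 87 and 86.1 counts, which is 14.7%, 12%, 57.3% and 46% of the reads of the gene. The irradiated libraries lay well above the controls, a log2 fold change of 1.97 (SE 0.422, adjusted p = 0.777, Benjamini-Hochberg, quasi-likelihood test of edgeR). Another Fanci transcript, XM_017322082.2, had 101, 94.5, 0 and 52.6 counts, with the irradiated libraries far apart. The Fanci total was even over the libraries, as given above. Of its exon bases, 16% overlap Polg on the opposite strand.

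Of 53 other genes of these pathways, all were listed and tested and 0 were called by edgeR's quasi-likelihood test. At an unadjusted p under 0.05, 2 of the 53 were higher (4.63% of all genes tested) and 2 lower (1.29% of all genes tested). Faap24, a DNA-binding partner of FANCM, had 292, 268, 326 and 442 normalized counts, a log2 fold change of 0.46 that was 0.22 without irradiated library 2. Bap1, a deubiquitinase that binds BRCA1 and BARD1, had 356, 388, 466 and 494, a log2 fold change of 0.37. Both irradiated libraries lay above both controls for these 2 genes. Smc5, a subunit of the SMC5/6 complex, had 216, 280, 179 and 166 normalized counts and a log2 fold change of -0.52, which turned to 0.67 when only NM transcripts were summed. Zgrf1, a helicase gene, had 82.0, 117, 58.5 and 68.9 and a log2 fold change of -0.64, which ran from -1.52 with NM transcripts only to -0.12 on TPM values without a filter. Without control library 2 it was -0.33 for Smc5 and -0.37 for Zgrf1. The adjusted p of the 4 was 0.708 (Benjamini-Hochberg, quasi-likelihood test of edgeR). The median of the 53 genes was -0.09, close to that of the 39 tested members, with 20 above 0 and 33 below by TMM. By library size alone, 32 lay above 0 and 21 below, beside 9181 of 12569 genes above 0.

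Of 15 target genes of p53, which is activated by DNA damage, 13 were listed, 10 were tested and 0 were called (edgeR). At an unadjusted p under 0.05 there was 1 of these 10, beside 5.92% of all genes tested. It was Ccng1, a cyclin gene induced by p53, with 62.5 and 68.3 normalized counts in control and 91.5 and 158 in irradiated oocytes. Both irradiated libraries were higher and they lay far apart, a log2 fold change of 0.94 (SE 0.300, adjusted p = 0.708, Benjamini-Hochberg, quasi-likelihood test of edgeR).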

How the data were processed

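RNA-seq of 2 control and 2 irradiated (5 Gy) libraries was analysed, grouped by sample titles. The authors aligned paired-end reads to GRCm38 with Bowtie2 and deposited, per RefSeq transcript, an estimated count without scaling for library size and a TPM value. The submitters' processing notes also name HISAT2 and RSEM and the build mm10, with no role given. Strand setting, counting annotation and tool versions are not given in the sources used here. Left out were 10 other deposited columns (4 with FPKM and 6 with averages). The control libraries held 37232818 and 33349466 estimated counts and the irradiated libraries 35350906 and 34532230, and 34 of the 40 members had a mean count of at least 100.

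Counts were summed by NCBI gene ID (17323 of 17374 IDs matched a symbol), and rounded to whole numbers. The test was that of edgeR 4.0.16 under R 4.3.3 (filterByExpr, minimum count of 10, TMM, glmQLFit and glmQLFTest, no block) over all features, with Benjamini-Hochberg adjustment. Calls followed the limits of the paper's methods (log2 fold change beyond 2 in either direction, adjusted p under 0.05). For isoform usage, diffSpliceDGE was used. Alternatives used DESeq2 1.42.0, limma 3.58.1, edgeR's exact test, other scalings and filters, TPM with pseudocounts of 1 and 0.1, NM transcripts only, a replicate block and each library left out. The quasi-likelihood test was also run on simulated counts. There, only features above the median level were changed, by more than the limit on the log2 fold change. Differences of the size seen in the members were not simulated. Sharing reads out within a gene leaves its summed count as it is, but moves its TPM level where its transcripts differ in length.

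The 40 members, the 53 other pathway genes, the 15 p53 targets and the cell type markers were chosen with earlier results of these data known. Levels were given for all members. Tests were given for called members, the 8 tested members of smallest unadjusted p and Rad54l, for transcripts called by edgeR or DESeq2 with the most abundant transcript of the gene, for isoform usage past an adjusted p of 0.05 or otherwise the 3 members of smallest p, and for the 4 other pathway genes of smallest p. A further gene of this list is not reported here. Exon overlaps came from GENCODE M21, and figures from matplotlib 3.10.9 in Python 3.11.15.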

Additional observations from a re-analysis of the deposited data

How the results depend on the processing

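The number of called members was 0 under every alternative, for totals and for isoform usage, and member transcripts were called only by DESeq2 (2) and edgeR's exact test (2). Members at an unadjusted p under 0.05 numbered 5, but 1 with library size alone, 2 with DESeq2, 0 on TPM values (each pseudocount and without a filter) and 0 to 17 with each library left out; member transcripts at this limit numbered 10, but 4 with library size alone and 3 to 16 with each library left out. Over all genes, 1 was called, against 0 with library size alone, limma-voom, TPM values or NM transcripts, 3 without a filter, 4 with DESeq2, 10 with the exact test and 16 to 87 with each library left out. Genes at an unadjusted p under 0.05 numbered 744, against 1197 without a filter, 436 with DESeq2, 217 and 236 on TPM values with pseudocounts of 1 and 0.1, 472 with NM transcripts and 319 to 5395 with each library left out. With the replicate number as a block, 7 genes were called and 1299 had an unadjusted p under 0.05, and 0 members were called. Whether the numbers pair the libraries was not settled. The paper names 2 independent experiments, the labels do not tie numbers to them, and the deviations of same-numbered libraries correlated at 0.0976, a single independent value with 2 libraries a condition. Directions turned for Brca1 (2.59) and Smc5 (0.67) with NM transcripts, and with a library left out for Rad54l (-0.0673 to 0.12). The median member level of 5.18 TPM was 2.56 with NM transcripts and 3.11 as library-scaled counts per kilobase over 39 members with a length. Leaving out a library leaves 1 library in its condition, which is then assumed to vary like the other condition. The range of adjusted p over 14 alternatives (block not counted) was 0.000569 to 1 for Wrn and from 5.82e-07 to 1 for Fancl (edgeR and the other tools, Benjamini-Hochberg). The causes were not tested. Depth limits the values of Fancf, Polq, Fanca, Fancg and Fance most.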
